A study of Mus musculus with 10 samples.

Results

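The genes described here write, maintain and remove cytosine methylation in mouse embryonic stem cells: the methyltransferase genes Dnmt1, Dnmt3a, Dnmt3b and Dnmt3l, the maintenance cofactor Uhrf1, the dioxygenase genes Tet1, Tet2 and Tet3, and the glycosylase gene Tdg. The 9 genes were chosen by function and position, out of 21631 protein-coding genes on the 20 chromosomes that carry peaks. The choice was made with earlier results of these data known. Every ChIP-seq peak whose summit lay inside a gene body or within 50 kb of it was assigned to that gene, which gave 16 of the 8819 peaks of the series. HA-tagged SOX15 (3 libraries) and HA-tagged SOX2 (2 libraries) were precipitated from knock-in cells that carry the tag on that factor, and 5 input libraries (3 for SOX15 and 2 for SOX2) were not analysed here. All samples were grown in 2i/LIF medium with no other treatment named, were fixed for 5 min in 1% formaldehyde, and differ by the tagged factor. The labels do not say how many clones were used or whether replicates came from separate cultures, so differences between replicates may be technical.

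Methylation at CpG dinucleotides is copied after replication by DNMT1, which UHRF1 brings to hemimethylated DNA. DNMT3A and DNMT3B set new methylation with the catalytically inactive partner DNMT3L. TET enzymes oxidise the methyl group, and TDG cuts out the more oxidised bases so that repair can restore cytosine. Embryonic stem cells in 2i/LIF are known for low methylation, and SOX2 and SOX15 are related HMG-box transcription factors.

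The peak lists hold no expression values, so the labelled cell type was checked by peaks alone. All 7 marker genes of pluripotent cells (Pou5f1, Sox2, Nanog, Klf4, Esrrb, Zfp42 and Tfcp2l1) had a SOX2 region called in both SOX2 libraries within 50 kb, against 14.2% of all protein-coding genes, and 3 of them had a SOX15 region called in at least 2 SOX15 libraries, against 2.26%. None of the 7 marker genes of other cell types (Gata6, Sox17, T, Alb, Myod1, Col1a1 and Hbb-bs) had a peak in the 5 libraries, against 29.6% of all genes, and with 7 genes a count of 0 is a weak check. The SOX15 lists held 217, 672 and 437 peaks in replicates 1, 2 and 3, and the SOX2 lists held 2676 and 4817 in replicates 1 and 2. The lists give no read counts, so depth is unknown, and binding too weak to be called would not be listed. The fold of a peak is the authors' own enrichment over background and can be compared only within a list, so the percentile of that fold within the library (100 is the strongest peak) is given beside it.

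No peak of the 5 libraries covered a promoter window of the 9 genes (16 RefSeq windows, from 250 bases before to 50 bases after a start site, some genes having more than 1). A peak covered 0.679% of all 32851 RefSeq windows, so 0 of 16 is near the background. For some genes, such as Tet3 and Dnmt3a, the outermost listed start (83441678 and 3806980) lies inside the gene body. The outer 5′ ends of these genes therefore have no window. The 3 windows printed here belong to the start site closest to a peak, to the gene with the most peaks and to the gene whose peaks in both SOX2 libraries lay closest to its start. They come from RefSeq on build GRCm38.p6 (the same coordinates as mm10) and run 5′ to 3′ on the gene's strand. Capitals mark the SOX core motif ACAAAG, and the windows of Tet2 and Uhrf1 hold none of the motifs searched.
Dnmt3a, the third start site, chr12:3891494-3891793, plus strand: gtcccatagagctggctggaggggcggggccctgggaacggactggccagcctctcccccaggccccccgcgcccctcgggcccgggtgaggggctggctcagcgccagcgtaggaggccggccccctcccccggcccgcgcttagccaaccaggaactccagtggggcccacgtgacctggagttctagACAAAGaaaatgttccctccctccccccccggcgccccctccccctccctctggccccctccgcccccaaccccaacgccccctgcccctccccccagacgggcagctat
Tet2, chr3:133544341-133544640, minus strand: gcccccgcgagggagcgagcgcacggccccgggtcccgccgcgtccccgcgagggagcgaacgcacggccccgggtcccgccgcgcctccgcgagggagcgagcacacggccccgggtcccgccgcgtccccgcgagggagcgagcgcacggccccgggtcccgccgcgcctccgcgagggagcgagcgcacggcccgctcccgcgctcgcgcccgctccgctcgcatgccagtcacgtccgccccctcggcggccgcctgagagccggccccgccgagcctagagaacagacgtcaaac
Uhrf1, first start site, chr17:56303087-56303386, plus strand: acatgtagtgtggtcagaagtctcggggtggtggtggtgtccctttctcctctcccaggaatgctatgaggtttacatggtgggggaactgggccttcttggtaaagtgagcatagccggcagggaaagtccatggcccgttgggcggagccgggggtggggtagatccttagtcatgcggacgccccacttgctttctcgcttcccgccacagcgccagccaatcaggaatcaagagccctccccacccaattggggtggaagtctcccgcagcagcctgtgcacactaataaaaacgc

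Exact matches to 3 motifs were searched on both strands, namely the SOX cores ACAAAG and ACAATG and the octamer core TGCAAAT. The first of these, ACAAAG, was found in 2 of the 16 windows, with no overlap between matches, at 60 bases before the third start of Dnmt3a and, on the other strand, at 4 bases before the third start of Dnmt3l. It is present in 18.7% of the 32851 RefSeq mouse promoter windows of the same length. ACAATG and TGCAAAT were in 0 of the 16 windows, against 12.6% and 4.02% of all windows. The 16 windows held 2 to 57 CpG dinucleotides with a median of 20, against a median of 7 over all windows. The Tet2 window held 57 (percentile 99.9 of all windows), and the first Dnmt1 window held the fewest, 2. Sequence under the peaks was not analysed here.

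SOX2 peaks lay near 6 of the 9 genes, and the SOX15 lists had a single peak, at Tet2. A peak of any library was near 29.6% of all protein-coding genes. A region called in both SOX2 libraries was present within 50 kb of 4 genes (Tet2, Tet3, Uhrf1 and Dnmt3b; 44.4%), against 14.2% of all protein-coding genes and 16.1% of the 7860 genes within the members' range of gene length (20.2 to 112.9 kb). A region called in at least 2 SOX15 libraries was near 0 of the 9, against 2.26% of all genes. Dnmt1, Dnmt3l and Tdg had no peak in the 5 libraries within 50 kb. For SOX15, 0 of 9 is a share near that background.

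**Figure D1:**
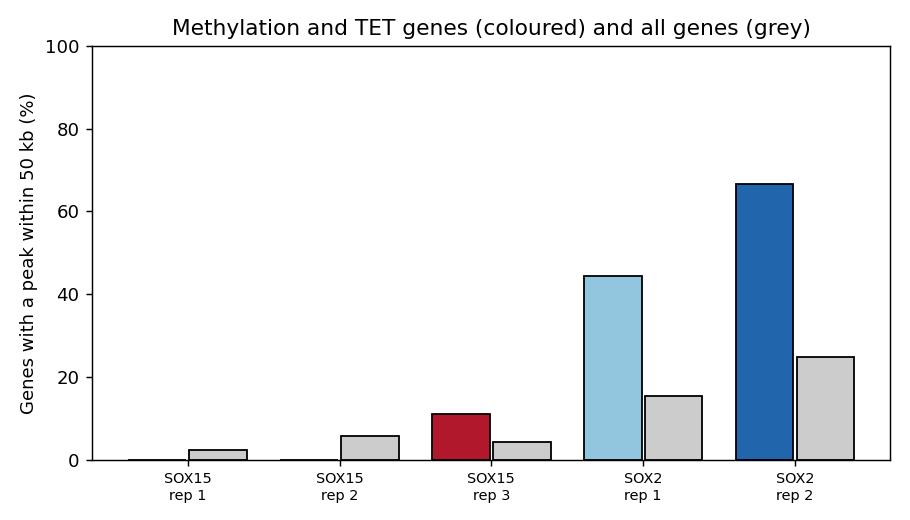
Percent of genes with a peak within 50 kb in each library, for the 9 methylation and TET genes (coloured bars, left in each pair) and for all 21631 protein-coding genes (grey bars). The coloured bars are at 0, 0 and 11.1% for SOX15 replicates 1, 2 and 3 and at 44.4% and 66.7% for SOX2 replicates 1 and 2.

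Counted by library, 0, 0 and 1 of the genes had a peak in SOX15 replicates 1, 2 and 3, and 4 and 6 had one in SOX2 replicates 1 and 2. The same shares of all genes were 2.29%, 5.78% and 4.26% for SOX15, and 15.5% and 24.9% for SOX2. The mean was 0.333 ± 0.577 genes for SOX15 (SD, n = 3) and 5.0 ± 1.41 genes for SOX2 (SD, n = 2), a difference of -4.67 with no overlap between the groups (exact two-sided permutation test, p = 0.1, adjusted p = 0.2 over 2 tests). With 3 libraries against 2, 0.1 is the smallest p this design can give. SOX2 lists are longer, so the peaks were also counted as a share of each list. The share in the 9 windows was 0%, 0% and 0.229% in SOX15 replicates 1, 2 and 3 (Wilson 95% intervals 0 to 1.74, 0 to 0.568 and 0.0404 to 1.28), and 0.187% and 0.208% in SOX2 replicates 1 and 2 (0.0798 to 0.437 and 0.113 to 0.382). The intervals overlap, cover counting error only, and the difference of means was -0.121 percentage points (exact two-sided permutation test, p = 0.4, adjusted p = 0.4); without SOX15 replicate 3 it was -0.197. Relative to list length, a difference between the factors in these windows was not detectable with these libraries.

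The 16 peaks fell on 10 sites, counting overlapping peaks of any library as 1 site. Of these, 5 were called in both SOX2 libraries, 5 in SOX2 replicate 2 alone and 0 in SOX2 replicate 1 alone, and 1 also had a SOX15 peak. Inside the body of the gene lay 4 sites, and the other 6 lay 4.88 to 32.2 kb outside it. Every one of the 6 outside sites was upstream of the gene. The distance to the nearest start site of the gene ranged from 1.60 to 32.9 kb.

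**Figure D2:**
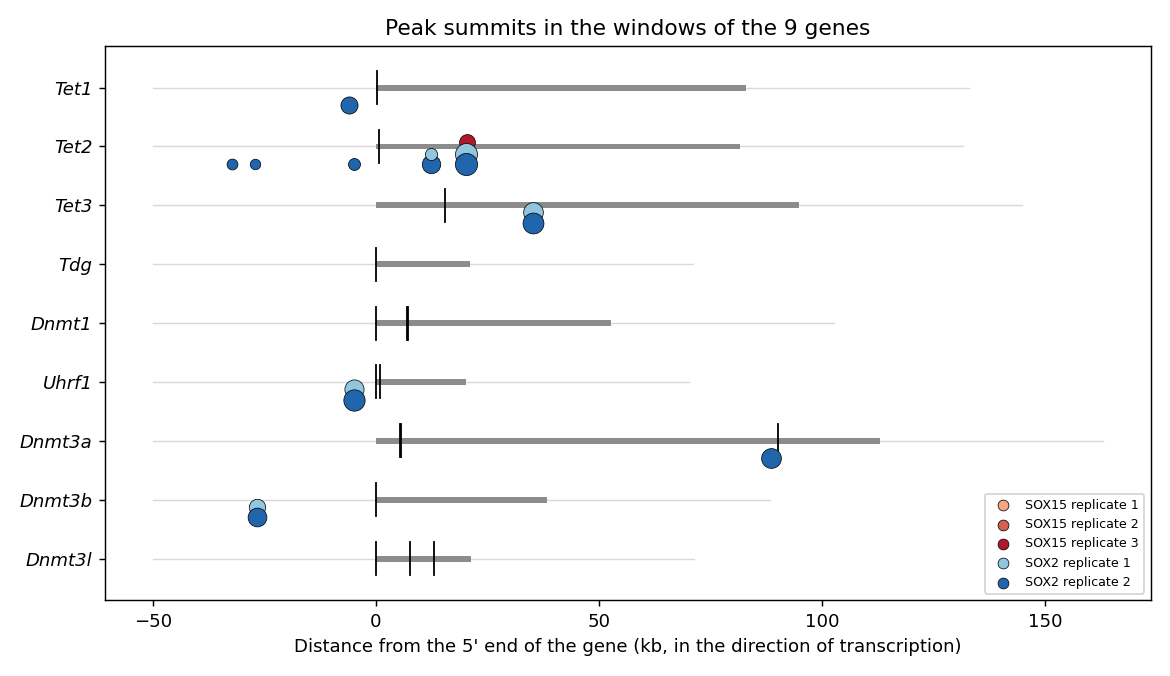
Position of each peak summit in kb from the 5′ end of its gene, with grey bars for gene bodies, black ticks for RefSeq start sites and thin lines for the 50 kb windows; circle area grows with the percentile of fold within the library. Tet2 has 8 peaks, and the rows of Tdg, Dnmt1 and Dnmt3l are empty.

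Tet2, a TET gene, had the most peaks of the 9 genes, 8 in all, and the strongest SOX2 site. That site lay inside the gene body (chromosome 3, 133524449 to 133525200; gene 133463677 to 133545136, minus strand), 19.5 to 19.6 kb downstream of the start site. SOX15 replicates 1 and 2 had no peak there and SOX15 replicate 3 had a fold of 5.96 (percentile 39.7, place 264 of 437), while SOX2 replicates 1 and 2 had folds of 22.1 and 25.8 (mean 24.0 ± 2.67, SD, n = 2; percentiles 95.1 and 96.5). It was thus among the strongest peaks of both SOX2 lists and below the middle of the SOX15 list. The SOX15 summit lay 23 and 55 bp from the SOX2 summits of replicates 1 and 2. By mean percentile the site was number 122 of the 2369 regions called in both SOX2 libraries. Of those 122 strongest regions, 61 (50%) had a peak in SOX15 replicate 3, against 6 (4.92%) in replicate 1 and 6 in replicate 2. These 122 are the regions at or above the rank of the Tet2 site, which is the lowest of them and is itself counted. The 50% is thus not a share at that rank. Of the 653 regions at or above the rank of the Tet3 site, 123 (18.8%) had a peak in SOX15 replicate 3.

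A second site inside Tet2 (133532472 to 133533009), 11.6 kb downstream of the start, had no SOX15 peak and folds of 6.02 and 9.47 in SOX2 replicates 1 and 2 (percentiles 15.7 and 61.0), with summits 9 bp apart. The other 3 Tet2 sites lay 5.0, 27.1 and 32.2 kb upstream of the gene and were called in SOX2 replicate 2 alone, with folds of 5.78, 5.07 and 5.27 in that order (percentiles 14.4, 6.66 and 8.49). These are among the weakest peaks of that list. At least 5 peaks in SOX2 replicate 2 within 50 kb were found at 110 of all genes (0.509%), and at least 2 regions of both SOX2 libraries at 608 genes (2.81%). Tet2 was the only member in each count. Both cuts equal the counts of Tet2 itself, so these shares only describe it. They are not matched for gene length, and Tet2 is 81.5 kb long against a median of 17.3 kb over all genes. The profile over the 5 libraries closest to that of Tet2 on another chromosome was 1 locus on chromosome 2, at a Euclidean distance of 3.60 percentile points (0, 0 and 39.2 for SOX15 and 93.8 and 99.8 for SOX2). The genes Acss2, Gss and Myh7b there share the same 3 peaks.

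Tet3 had 1 site, inside the gene body (chromosome 6, 83421765 to 83422166; gene 83362373 to 83457208, minus strand). It lay 19.7 kb downstream of the only listed start site (83441678), and farther from the outer 5′ end of the gene. No SOX15 library had a peak there, and SOX2 replicates 1 and 2 had folds of 11.1 and 14.4 (mean 12.7 ± 2.37, SD, n = 2; percentiles 72.2 and 83.6). The summits of the SOX2 libraries were 7 bp apart. Tet1, whose product is prominent in embryonic stem cells, had a single peak 6.0 kb upstream of the gene (chromosome 10, 62893030 to 62893664), in SOX2 replicate 2 alone, with a fold of 8.31 (percentile 49.9). The nearest peak of SOX2 replicate 1 was 479 kb away. The nearest SOX15 peaks to Tet1 were 662 kb away or farther in the 3 libraries.

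**Figure D3:**
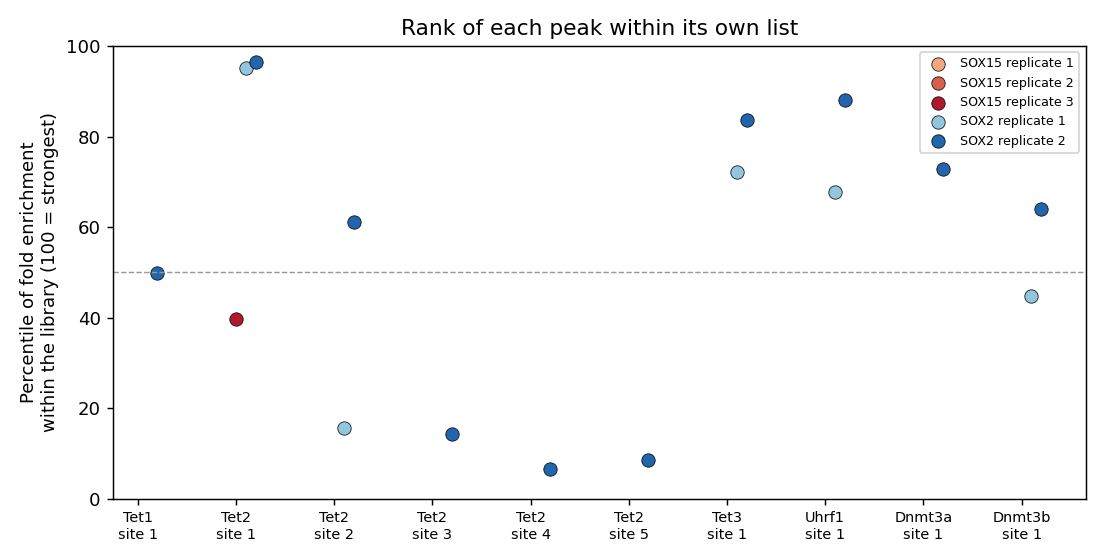
Percentile of fold within its own library for each of the 16 peaks, by site (x axis) and library (colour); the dashed line marks the 50th percentile. The first Tet2 site stands at 95.1 and 96.5 in the SOX2 libraries and at 39.7 in SOX15 replicate 3, the only SOX15 peak.

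Of the maintenance genes, Uhrf1 had a SOX2 site and Dnmt1 had none. The site near Uhrf1 (chromosome 17, 56298307 to 56298660; gene 56303337 to 56323486, plus strand) lay 4.88 to 4.91 kb upstream of the first start, inside the neighbouring gene Arrdc5. No SOX15 library had a peak, and SOX2 replicates 1 and 2 had folds of 10.3 and 16.3 (mean 13.3 ± 4.24, SD, n = 2; percentiles 67.8 and 88.0). The summits were 27 bp apart. The nearest SOX15 peaks were 291 kb away in each of the 3 SOX15 libraries, close to Lonp1. Around Dnmt1 (chromosome 9, 20907206 to 20959888) the nearest peaks were 314, 5590 and 5590 kb away in SOX15 replicates 1, 2 and 3, and 809 and 496 kb away in SOX2 replicates 1 and 2.

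Among the de novo genes, Dnmt3b had a site called in both SOX2 libraries, Dnmt3a had 1 peak and Dnmt3l had none. The Dnmt3b site (chromosome 2, 153622477 to 153622908; gene 153649411 to 153687730, plus strand) lay 26.7 to 26.8 kb upstream of the start, inside Commd7. It had no SOX15 peak and folds of 7.99 and 9.85 in SOX2 replicates 1 and 2 (mean 8.92 ± 1.31, SD, n = 2; percentiles 44.7 and 63.9). The summits were 52 bp apart, and the site was number 1354 of 2369 by mean percentile.

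The Dnmt3a peak (chromosome 12, 3890021 to 3890423; gene 3801559 to 3914443, plus strand) was called in SOX2 replicate 2 alone, with a fold of 11.2 (percentile 72.8). It was the peak closest to a start site among the 9 genes, 1.60 kb upstream of the third start, whose window is printed above and holds ACAAAG. The peak did not cover that window, and ACAAAG is in 18.7% of all windows. Dnmt3a is known to make a shorter form from an internal promoter in embryonic stem cells. A link between this peak and that promoter was not tested. Just beyond the 50 kb limit, at 62.6 kb from Dnmt3a and closest to Dtnb, both SOX2 libraries had a peak. Its folds were 6.97 and 6.57 in SOX2 replicates 1 and 2 (percentiles 31.0 and 26.4). The farthest peak inside the limit was the one 32.2 kb from Tet2. Dnmt3l had its nearest peaks at 3119, 923 and 90.8 kb in SOX15 replicates 1, 2 and 3, and at 196 kb in both SOX2 replicates.

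Tdg (chromosome 10, 82629814 to 82650799), the glycosylase gene downstream of the TET enzymes, had its nearest peaks at 1264, 1263 and 1264 kb in SOX15 replicates 1, 2 and 3, and at 495 and 159 kb in SOX2 replicates 1 and 2. The 3 SOX15 lists shared the same nearest peak, near Mfsd12.

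**Figure D4:**
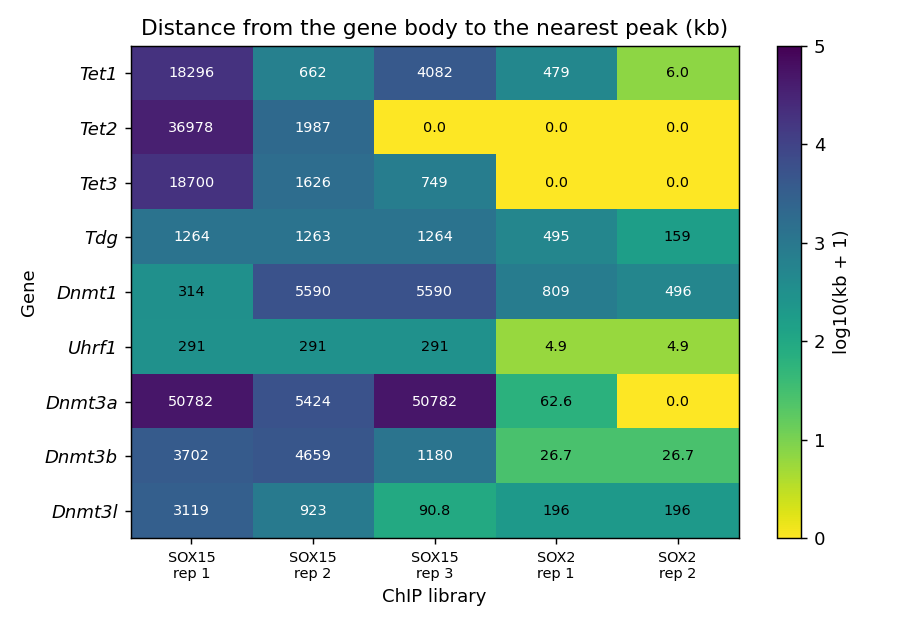
Distance in kb from each gene body to the nearest peak of each library; colour gives log10(kb + 1), and 0.0 means a summit inside the gene. SOX2 distances are at or under 62.6 kb for 5 of the 9 genes in both libraries, and SOX15 distances are at least 90.8 kb in each library and gene but Tet2 in replicate 3.

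Other genes of the pathway were read in the same way, from a list of 40 partners. A region called in at least 2 SOX15 libraries lay near 4 of the 40 (10.0%), against 2.26% of all genes, and a region called in both SOX2 libraries lay near 17 (42.5%), against 14.2%. By role, SOX15 regions were near 1 of 12 partners of methylation writing, 0 of 7 TET partners, 1 of 12 base excision repair genes, 1 of 7 readers of methylation and 1 of 2 methyl donor genes. SOX2 regions were near 8, 4, 2, 2 and 1 of them in the same order. The role names are broad. The writing group also holds Prdm14 and Dppa3, described below as acting against methylation factors. The methyl donor group holds Ahcy, which clears the reaction product. These lists hold genes of pluripotency such as Nanog, Sall4 and Prdm14, and 17 of the 40 had no peak in the 5 libraries. The lists were not tested.

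**Figure D5:**
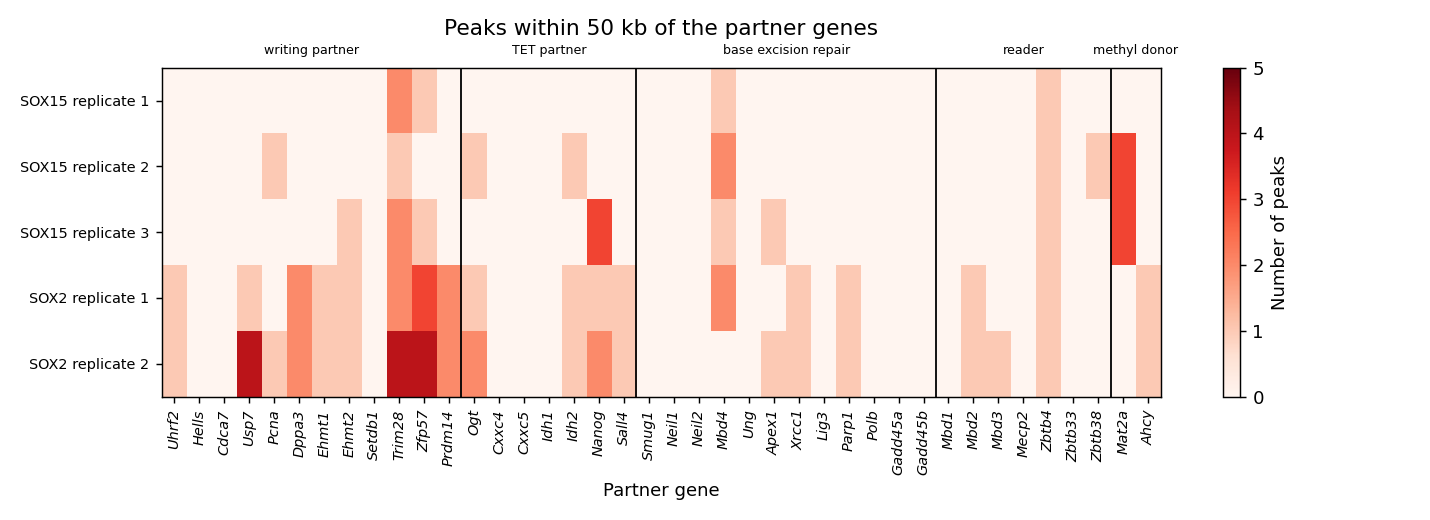
Number of peaks within 50 kb of each of the 40 partner genes (columns, grouped by role) in each library (rows). Darker colour means more peaks, and the highest count shown is 4. Mat2a has 3 peaks in SOX15 replicates 2 and 3 and none in the SOX2 libraries, and Usp7, Trim28 and Zfp57 have 4 peaks in SOX2 replicate 2.

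The strongest SOX2 region near a partner lay 5.50 kb from Ahcy, which clears the product of methylation reactions (chromosome 2, 155079734 to 155080207). It had no SOX15 peak and folds of 26.4 and 32.9 in SOX2 replicates 1 and 2. Prdm14, a repressor of Dnmt3b and other methylation genes in embryonic stem cells, had no SOX15 peak and folds of 18.5 and 31.1 in SOX2 replicates 1 and 2 at its strongest region (chromosome 1, 13084759 to 13085386), 28.3 kb from the gene. Usp7, whose product stabilises DNMT1, had 14.99 and 18.8 in the SOX2 libraries at 21.8 kb. Trim28, a corepressor that holds methylation at imprinted loci, had 12.5 and 25.8 in the SOX2 libraries at 9.75 kb, closest to Zbtb45. Dppa3, the gene of a germline factor that limits UHRF1, had 10.2 and 17.9 in SOX2 replicates 1 and 2 at 35.1 kb, closest to Apobec1. Zfp57, which guards imprints, had 9.95 and 17.5 at 3.46 kb in those replicates, closest to H2-M5. Uhrf2, a paralogue of Uhrf1, had 15.5 and 7.87 at 1.17 kb, and Mbd2, a methyl-CpG reader gene, had 9.34 and 10.99 at 27.9 kb, closest to Poli. None of the SOX2 regions listed in this paragraph had a SOX15 peak on it, but others did. The SOX2 region near Zbtb4, given below, ranked above those of Uhrf2 and Mbd2 and had a peak of all 3 SOX15 libraries. A SOX2 region 38.4 kb from Ehmt2 had a peak in SOX15 replicate 3 (fold 6.13).

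SOX15 regions near partners were near Trim28, Mbd4, Zbtb4 and Mat2a; Mbd4 was named after its values were seen. At Mat2a, the gene of the enzyme that makes the methyl donor S-adenosylmethionine, 3 regions lay 1.03 to 2.42 kb from the gene and next to Ggcx. The strongest (chromosome 6, 72430681 to 72431390) was called in SOX15 replicates 2 and 3, at folds of 6.12 and 8.26, and in no other library. At Zbtb4, a methyl-CpG binding factor gene, the region belonged by distance to Polr2a, with 8.35, 17.6 and 9.37 in SOX15 replicates 1, 2 and 3 and 22.8 and 8.94 in SOX2 replicates 1 and 2. The Trim28 region (chromosome 7, 13034019 to 13035743), closest to Chmp2a, had 5.94, 21.1 and 7.35 in SOX15 replicates 1, 2 and 3, and 5.95 and 3.77 in SOX2 replicates 1 and 2. These SOX2 peaks did not overlap each other. Only 1 region near Trim28 was called in both SOX2 libraries, the one at 9.75 kb given above. Mbd4, a glycosylase gene, had 2 regions, of which the nearer lay 1.75 kb away and closest to Efcab12, with 6.26 and 6.93 in SOX15 replicates 1 and 2 and 5.47 in SOX2 replicate 1. Each of these regions was thus nearer to another gene than to the partner, and with the nearest gene alone 0 of the 40 partners had a SOX15 region. Without SOX15 replicate 2 the count of 4 was 2. The share of all genes was not computed for either setting. Hells, Cdca7, Setdb1, Cxxc4 and Idh1 had no peak in the 5 libraries.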

How the data were processed

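ChIP-seq peak lists of 3 SOX15 and 2 SOX2 libraries were analysed, grouped by title. The submitters' processing notes name Bowtie2, MACS2, deepTools and build mm10 but no versions. No source used here says which control entered peak calling. The authors called peaks per sample and deposited, for each peak, a fold enrichment (a linear ratio), a −log10 p-value and −log10 q-value, a summit offset and an integer score, found in all 5 lists to be the −log10 q-value times 10, cut to a whole number.

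Genes and promoters came from RefSeq tables of GRCm38.p6; the gene table gives no exons. Within a factor, peaks sharing 1 bp or more were joined, and a region counted as reproducible with both SOX2 or at least 2 SOX15 libraries. Values per library were compared by exact permutation over the 10 splits. Window assignment and merging were tested on simulated peaks. The members, gene lists and rules were chosen with earlier results of these data known. The 9 genes were always reported, as were the 10 highest-ranked partners with a reproducible region and up to 5 with none. Of the planned partner genes, 2 were left out of the list and of every count, and are not reported here. Alternatives were window size, nearest gene, thresholds, overlap, a peak in any library, replicate numbers as pairs, and each library left out. Computation used pandas 2.3.3 and numpy 2.4.6 under Python 3.11.15, with scipy 1.17.1 for intervals and matplotlib 3.10.9 for figures.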

Additional observations from a re-analysis of the deposited data

How the results depend on the processing

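The counts of genes with a reproducible region, 0 (SOX15) and 4 (SOX2) of the 9 genes and 4 (SOX15) and 17 (SOX2) of the 40 partners, were within 1.5 times of these values under most alternatives. With the nearest protein-coding gene alone they were 0 and 2 of the 9 (the sites near Uhrf1 and Dnmt3b lie in neighbouring genes), and 0 and 11 of the 40. Within 10 kb the SOX2 count of partners was 11. Counting a peak of any library gave 1 of the 9 and 12 of the 40 for SOX15. The share of all genes was not computed for the nearest-gene, 10 kb and any-library counts. The 14.2% (SOX2) and 2.26% (SOX15) given above belong to another rule and are not their background. With each library left out in turn, the SOX15 counts ranged from 0 to 0 of the 9 and from 2 to 4 of the 40, and the SOX2 counts from 4 to 6 and from 17 to 20; with 1 SOX2 library left, a peak in that library alone was counted. The difference in genes with a peak, SOX15 minus SOX2, ranged from -5.67 to -3.67 with a library left out, and the difference in the share of peaks from -0.197 to -0.0828 percentage points. With the nearest protein-coding gene alone these differences were -2.67 genes and -0.0628 percentage points, the smallest in size of the alternatives run. With replicates 1 and 2 paired by number (replicate block), these differences were -5.0 and -0.197 (exact sign-flip test, p = 0.5 each, the smallest 2 pairs can give). No difference changed sign under the alternatives run. Depth is unknown, so genes without a peak may lie under the threshold.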
